A study of Mus musculus with 12 samples.

Results

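The genes described here are 8 of the mouse genes for antigen presentation by MHC class II molecules: Cd74, H2-Aa, H2-Ab1, H2-Eb1, H2-DMa, H2-Oa, H2-Ob and Ciita. They were chosen by name, as the genes that at least 1 probe set names alone, and each gene is given by the probe set that is brightest on average over all arrays. All 8 were measured, among 18193 genes tested. The 8 genes have 16 such probe sets, with 4 genes on a single probe set and 4 on several.

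The arrays came from female C57BL/6 mice, 6 weeks old, whose whole bone marrow was grown as a primary culture. There were 4 groups of 3 arrays, 12 in all: c-kit+ cells from cultures given 1 nM 17βE (17β-estradiol, the main estrogen) over 1 week, c-kit+ cells from control cultures, CD44+ cells from estradiol cultures and CD44+ cells from control cultures. The labels call the c-kit+ fraction stem cells and the CD44+ fraction stromal cells. Nothing in them tells whether the replicates of a group came from different cultures or mice. The p-values therefore reflect the spread between these arrays only, which may be technical, and precision is limited by their number.

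MHC class II molecules are pairs of an alpha and a beta chain that carry peptides from the endosomes to the cell surface, where CD4+ T cells read them. The invariant chain, the product of Cd74, fills the groove of new pairs and guides them to the endosome, H2-DM then exchanges its remnant for peptide, and H2-O inhibits H2-DM. Ciita is the coactivator that switches these genes on together, through a complex of RFX, CREB and NF-Y proteins bound at the X and Y boxes of their promoters. Dendritic cells, B cells and activated macrophages are the cells known for class II molecules, while most stromal and progenitor cells make little of them unless interferon gamma is present. C57BL/6 mice are known to lack a working H2-Ea gene, so the H2-Eb1 chain has no partner for the I-E molecule in this strain.

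The promoters of these genes are shown because the shared box letters are the textbook link between the members. RefSeq's promoter table (GRCm38.p6) held windows for 5 of the 8 genes, and 4 of them had the letters GCAAC, from the core of the X box, followed on the transcribed strand by ATTGG, from the core of the Y box, between 20 and 40 bases further on. Those letters are in capitals in the stretches below, all from the bases before the gene's start on chromosome 17. H2-Aa lies at chr17:34287837-34287924 on the minus strand, H2-Eb1 at chr17:34305756-34305842 on the plus strand, H2-Oa at chr17:34092283-34092370 on the plus strand and H2-Ob at chr17:34238798-34238882 on the plus strand.
H2-Aa: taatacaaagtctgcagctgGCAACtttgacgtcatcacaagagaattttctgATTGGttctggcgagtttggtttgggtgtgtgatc
H2-Eb1: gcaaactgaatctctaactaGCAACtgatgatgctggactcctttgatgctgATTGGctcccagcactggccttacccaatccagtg
H2-Oa: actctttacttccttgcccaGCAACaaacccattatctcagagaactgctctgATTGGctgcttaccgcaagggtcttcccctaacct
H2-Ob: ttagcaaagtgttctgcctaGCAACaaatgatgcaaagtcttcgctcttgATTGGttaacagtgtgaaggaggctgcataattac

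From the first base of GCAAC to the first base of ATTGG there were 33 bases in H2-Aa, 32 in H2-Eb1, 33 in H2-Oa and 30 in H2-Ob. The letters were picked after these sequences had been read. Of 32851 promoter windows in the table, searched over 250 bases before each start, 0.475% held the same letters at that spacing on the transcribed strand and 0.874% on either strand. They were not in the windows of H2-DMa, which says only that these letters are not there. Those windows lie before starts inside the span that RefSeq lists for the gene. The bases before the first base of that span were not searched. In the table's gene order on chromosome 17 the members run H2-Oa, H2-DMa, H2-Ob, H2-Ab1, H2-Aa and H2-Eb1, while Ciita is on chromosome 16 and Cd74 on chromosome 18.

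The labels of the fractions were set against marker genes before the results. Kit, the gene of the c-kit receptor, lay between 3.79 and 4.22 on the log2 scale on all 12 arrays and did not differ detectably between fractions (log2 0.01 in estradiol cultures, adjusted p = 0.995 in limma). Cd44 lay between 11.76 and 12.46 in both fractions. Macrophage genes were bright on every array, with Csf1r between 13.86 and 14.11, Adgre1 between 13.00 and 13.74 and Lyz2 between 13.91 and 14.35. Itgam, of the same list, was dimmer, between 6.24 and 8.07. The stromal genes Col1a2, Col3a1 and Cxcl12 were bright in the CD44+ fraction and lower in the c-kit+ fraction. Dcn, Lum, Lepr and Sp7, of the same list, were dim in both fractions, between 3.43 and 5.59. The Kit values lie within the range of probe sets for Y-linked genes, which female mice lack (3.04 to 4.54 for 6 genes), so a difference in Kit RNA may have been too small to see at this signal. The names c-kit+ and CD44+ are those of the labels.

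Within the c-kit+ control group, replicate 3 stood apart. Its values lay 0.268 (root mean square, log2) from the group mean over all genes, against 0.123 to 0.191 for the other 11 arrays. It was also the lowest array of its group for Cd74, H2-Aa, H2-Ab1, H2-Eb1 and H2-DMa. The main differences of the first 4 are therefore given with and without it, as is the estradiol difference of H2-DMa in c-kit+ cells. RNA quality differed between fractions: the 3' minus 5' gap of Gapdh on its control probe sets (log2), which widens when RNA is degraded or shortened by amplification, was 4.23 to 6.17 in c-kit+ estradiol, 4.62 to 5.35 in c-kit+ control, 3.32 to 4.31 in CD44+ estradiol and 2.83 to 4.14 in CD44+ control arrays.

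**Figure D1:**
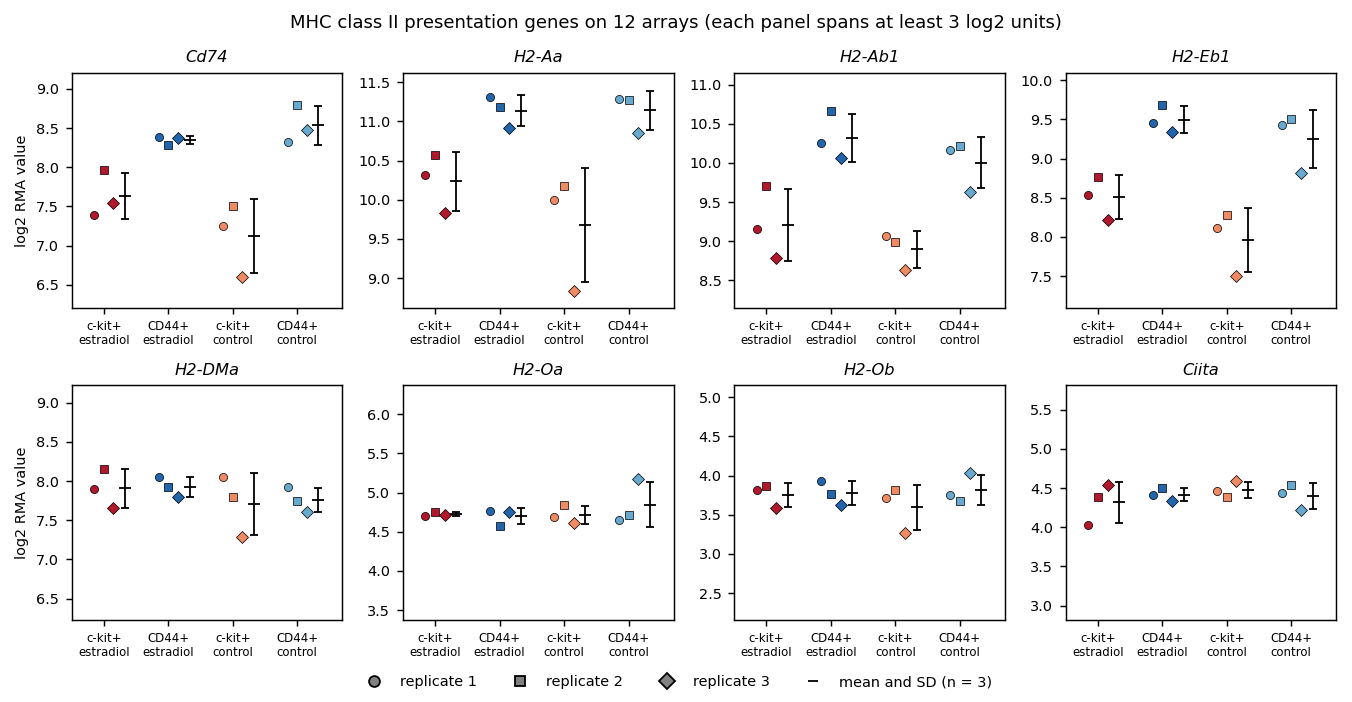
Log2 RMA value (vertical axis) of each of the 8 class II genes on each of the 12 arrays, by group, with symbols for replicate number and bars for the mean and SD of 3 arrays. In both kinds of culture Cd74, H2-Aa, H2-Ab1 and H2-Eb1 sit lower in the c-kit+ than in the CD44+ arrays without overlap, while H2-DMa, H2-Oa, H2-Ob and Ciita overlap. Each panel spans at least 3 log2 units.

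Of the 8 genes, those that differed between the fractions were lower in c-kit+ than in CD44+ cells, and they were the I-A and I-E chain genes and the invariant chain gene. In estradiol cultures 2 of the 8 genes passed, H2-Ab1 and H2-Eb1, both lower, where 2.33% of all genes tested were called lower. In control cultures 4 of the 8 passed, Cd74, H2-Aa, H2-Ab1 and H2-Eb1, all lower and between 2.15-fold and 2.77-fold, where 1.76% of all genes tested were called lower. The groups of 3 arrays did not overlap for these 4 genes in either kind of culture, a pattern (all c-kit+ arrays below all CD44+ arrays) that 8.15% of all genes showed in estradiol cultures and 8.33% in control cultures. The median over the 8 genes was -0.41 in estradiol and -0.66 in control cultures, beside 0.03 and 0.01 over all genes. In such mixed samples fewer class II bearing cells and less class II RNA per cell cannot be told apart.

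H2-Aa encodes the alpha chain of the I-A molecule. Its log2 values were 10.31, 10.57 and 9.83 in c-kit+ estradiol arrays, 10.00, 10.18 and 8.84 in c-kit+ control arrays, 11.31, 11.18 and 10.92 in CD44+ estradiol arrays and 11.29, 11.28 and 10.85 in CD44+ control arrays. All 6 c-kit+ arrays were below all 6 CD44+ arrays, and c-kit+ control replicate 3 was the lowest of all. In control cultures the difference was -1.47 (SE 0.29, 95% interval -2.10 to -0.83, 2.77-fold lower, limma adjusted p = 0.0181). In estradiol cultures it was -0.89 (SE 0.29, interval -1.53 to -0.26, 1.86-fold, adjusted p = 0.204), which did not pass.

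H2-Ab1 encodes the I-A beta chain, the partner of H2-Aa. It measured 9.15, 9.70 and 8.78 in c-kit+ estradiol arrays, 9.07, 8.99 and 8.63 in c-kit+ control arrays, 10.25, 10.66 and 10.06 in CD44+ estradiol arrays and 10.17, 10.21 and 9.63 in CD44+ control arrays. The fractions kept apart within each kind of culture, although the highest c-kit+ estradiol array exceeded the lowest CD44+ control array. The difference was -1.11 in estradiol cultures (SE 0.23, 2.16-fold lower, adjusted p = 0.0208) and -1.10 in control cultures (SE 0.23, 2.15-fold lower, adjusted p = 0.0254).

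H2-Eb1, the beta chain of I-E, had 8.54, 8.77 and 8.22 in c-kit+ estradiol arrays, 8.11, 8.28 and 7.50 in c-kit+ control arrays, 9.46, 9.68 and 9.34 in CD44+ estradiol arrays and 9.43, 9.50 and 8.82 in CD44+ control arrays. Every c-kit+ array was below every CD44+ array. It was lower by 1.97-fold in estradiol cultures (log2 -0.98, SE 0.22, adjusted p = 0.0323) and by 2.44-fold in control cultures (log2 -1.29, SE 0.22, adjusted p = 0.00656).

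Cd74 encodes the invariant chain. It gave 7.39, 7.96 and 7.54 in c-kit+ estradiol arrays, 7.25, 7.51 and 6.60 in c-kit+ control arrays, 8.39, 8.29 and 8.37 in CD44+ estradiol arrays and 8.32, 8.80 and 8.48 in CD44+ control arrays. Again the 6 c-kit+ arrays all lay below the 6 CD44+ arrays. The difference was -0.72 in estradiol cultures (SE 0.21, interval -1.18 to -0.26, adjusted p = 0.129) and did not pass there, and -1.41 in control cultures (SE 0.21, interval -1.87 to -0.95, 2.66-fold lower, adjusted p = 0.00317).

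In order of level, the CD44+ groups stood highest for these 4 genes and the c-kit+ control group lowest. For Cd74 the means were 7.63 ± 0.30 in c-kit+ estradiol, 7.12 ± 0.47 in c-kit+ control, 8.35 ± 0.05 in CD44+ estradiol and 8.53 ± 0.25 in CD44+ control arrays (SD, n = 3 each). For H2-Aa they were 10.24 ± 0.37 in c-kit+ estradiol, 9.67 ± 0.73 in c-kit+ control, 11.13 ± 0.20 in CD44+ estradiol and 11.14 ± 0.25 in CD44+ control arrays. H2-Ab1 averaged 9.21 ± 0.46 in c-kit+ estradiol, 8.90 ± 0.23 in c-kit+ control, 10.32 ± 0.30 in CD44+ estradiol and 10.00 ± 0.32 in CD44+ control arrays, so for this gene and the next the CD44+ estradiol mean was the highest. H2-Eb1 averaged 8.51 ± 0.27 in c-kit+ estradiol, 7.96 ± 0.41 in c-kit+ control, 9.49 ± 0.17 in CD44+ estradiol and 9.25 ± 0.38 in CD44+ control arrays. Neighbouring groups of the same fraction overlapped for all 4 genes, whereas the step between fractions was free of overlap within each kind of culture.

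The replicate numbers paired the c-kit+ and CD44+ estradiol arrays (correlations of deviations from the group means of 0.447, 0.192 and 0.312). With the replicate number as a block all 4 genes passed in estradiol cultures, with adjusted p = 0.0473 for Cd74, 0.0125 for H2-Aa, 0.000335 for H2-Ab1 and 0.000292 for H2-Eb1. That block was fitted over all 12 arrays, while the numbers paired the c-kit+ control arrays with no other group. These p-values therefore rest in part on a pairing that was not seen. Single arrays mattered in the fit without the block. In estradiol cultures H2-Eb1 lost its call without any 1 of the 6 arrays compared (adjusted p 0.0533 to 0.134), and H2-Ab1 lost it without c-kit+ estradiol replicates 1 or 3 or CD44+ estradiol replicates 1 or 2 (0.0713 to 0.0953). In control cultures H2-Ab1 lost its call without any 1 c-kit+ control array or CD44+ control replicates 1 or 2 (0.0507 to 0.0935), and H2-Aa without CD44+ control replicates 1 or 2 (0.0615 and 0.0605). Cd74 and H2-Eb1 passed in control cultures whichever of the 12 arrays was left out.

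Without c-kit+ control replicate 3 the differences in control cultures were -1.15 for Cd74 (adjusted p = 0.00265), -1.05 for H2-Aa (0.0127), -0.97 for H2-Ab1 (0.0611) and -1.06 for H2-Eb1 (0.0127). In estradiol cultures Cd74 and H2-Aa passed without it (adjusted p = 0.0191 and 0.0128). With the Gapdh 3' minus 5' gap as a covariate, a fit added after the data were seen, the differences in estradiol cultures were -0.74 for Cd74 (adjusted p = 0.37), -1.31 for H2-Aa (0.0824), -1.30 for H2-Ab1 (0.0472) and -1.28 for H2-Eb1 (0.0242). In control cultures they were -1.43 for Cd74 (0.0354), -1.93 for H2-Aa (0.0197), -1.31 for H2-Ab1 (0.0703) and -1.62 for H2-Eb1 (0.0134). All 8 differences were as large or larger with the covariate, while H2-Ab1 in control cultures lost its call. The gap itself differed between the fractions, so its slope rests on the scatter within groups. This fit therefore cannot tell RNA quality apart from the fraction, and no conclusion is drawn from it.

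The peptide editors and the coactivator did not pass. H2-DMa, the alpha chain of the H2-DM editor, measured 7.90, 8.16 and 7.66 in c-kit+ estradiol arrays, 8.05, 7.79 and 7.28 in c-kit+ control arrays, 8.05, 7.93 and 7.80 in CD44+ estradiol arrays and 7.92, 7.74 and 7.61 in CD44+ control arrays. The fractions overlapped, with a difference of -0.02 in estradiol cultures (interval -0.41 to 0.38, adjusted p = 0.995) and -0.05 in control cultures (interval -0.45 to 0.34, adjusted p = 0.942). Those intervals do not reach the differences fitted for the I-A and I-E chains. In estradiol cultures, however, the interval of H2-DMa overlaps that of H2-Aa given above. No gene was tested against another.

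H2-Oa and H2-Ob encode the chains of H2-O, the inhibitor of H2-DM, which is known from B cells and thymus. H2-Oa lay between 4.58 and 5.18 over 12 arrays and H2-Ob between 3.27 and 4.03. Their differences were 0.02 and -0.02 in estradiol cultures (adjusted p = 0.990 and 0.992) and -0.13 and -0.22 in control cultures (0.743 and 0.584). Ciita lay between 4.03 and 4.59 over 12 arrays, with a difference of -0.10 in estradiol cultures (interval -0.39 to 0.19, adjusted p = 0.937) and 0.08 in control cultures (interval -0.21 to 0.37, 0.867). Probe sets for 6 Y-linked genes, which female mice lack, lay between 3.04 and 4.54, and a seventh, Sry, raised that to 6.37, so for H2-Oa, H2-Ob and Ciita a small difference could not be seen at these signals. Probe sets differ in brightness for the same RNA, so this is no statement that the genes are off.

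**Figure D2:**
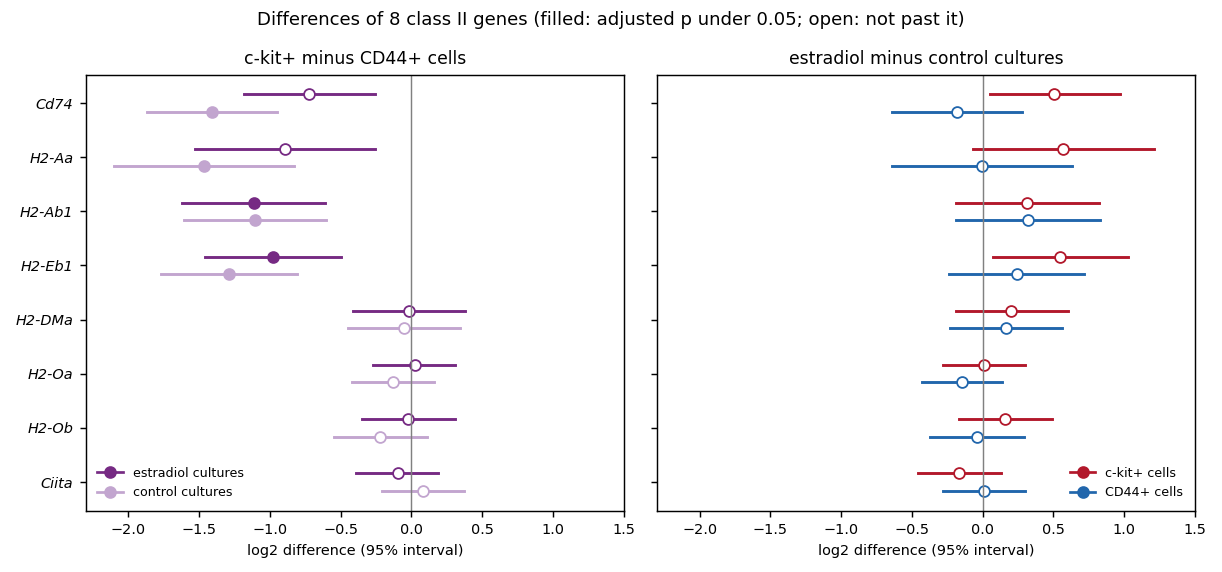
Log2 difference with its 95% interval (horizontal axis) for each of the 8 genes: c-kit+ minus CD44+ cells on the left, in estradiol and in control cultures, and estradiol minus control cultures on the right, in c-kit+ and in CD44+ cells. Filled points passed an adjusted p of 0.05 and open points did not. The filled points are H2-Ab1 and H2-Eb1 in estradiol cultures and these with Cd74 and H2-Aa in control cultures, all left of 0, and no point is filled on the right.

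The genes with several probe sets were read on each of them. All 4 probe sets of H2-Aa and all 3 of H2-Ab1 were lower in c-kit+ cells without overlap in both kinds of culture, with differences of -1.22 to -0.86 in estradiol cultures and -1.49 to -0.85 in control cultures. The second H2-DMa probe set differed by -0.03 in estradiol and -0.02 in control cultures. The 2 dimmer Ciita probe sets did not keep to 1 direction: 1 gave 0.07 in estradiol and 0.03 in control cultures, with overlap, and the other gave 0.04 in estradiol cultures, with overlap, and -0.20 in control cultures, without. Such probe sets read the same RNA and are not independent of each other. A probe set that H2-Ob shares with Gm20506 was brighter than the H2-Ob probe set used here, between 4.81 and 5.28. It differed by -0.11 in estradiol and 0.02 in control cultures, with overlap in both.

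The remaining class II chains showed less. H2-DMb1 and H2-DMb2, the beta chains of H2-DM, share 2 probe sets that cannot tell them apart. The brighter of these gave -0.56 in estradiol cultures, without overlap, and -0.31 in control cultures, with overlap, and the other gave -0.42 and -0.07 with overlap in both. H2-DMb2 on its own probe set, H2-Ea and H2-Eb2 did not pass, with differences of -0.11, -0.01 and 0.01 in estradiol cultures and -0.26, -0.26 and -0.03 in control cultures. RefSeq lists H2-Ea as a transcribed pseudogene. Its brightest probe set averaged 7.38 over 12 arrays while its other 2 averaged 3.45 and 3.46.

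**Figure D3:**
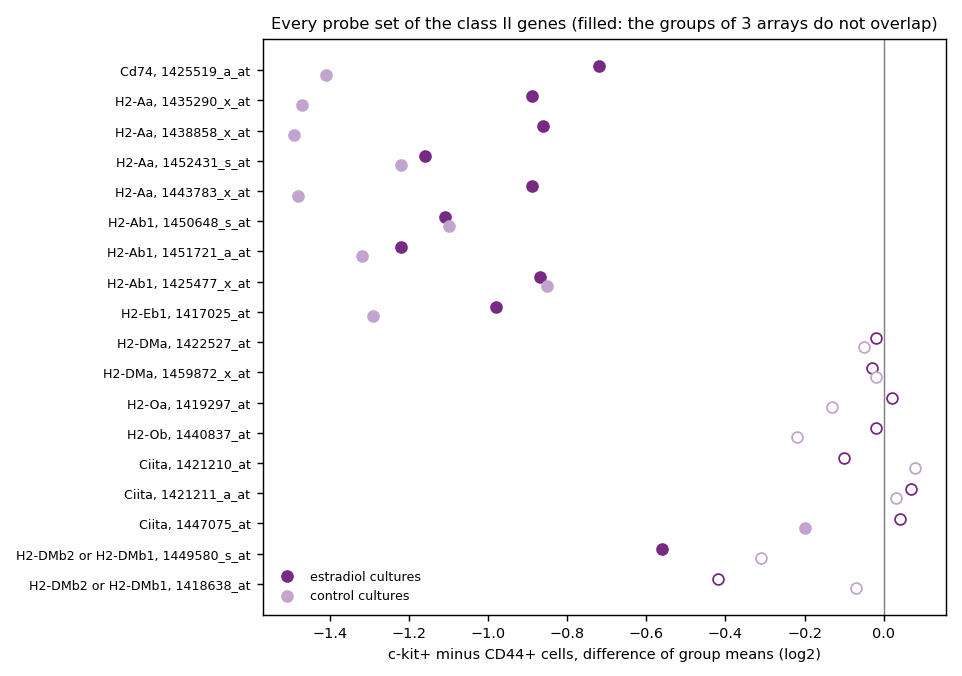
Difference of group means, c-kit+ minus CD44+ cells (log2, horizontal axis), for every probe set that names 1 of the 8 class II genes alone and for the probe sets shared by H2-DMb1 and H2-DMb2, in estradiol cultures and in control cultures. Filled points mark groups of 3 arrays that do not overlap. The probe sets of Cd74, H2-Aa, H2-Ab1 and H2-Eb1 are all filled and at -0.72 or lower. Those of H2-DMa, H2-Oa and H2-Ob are open and near 0, and of the Ciita points 1 is filled, at -0.20 in control cultures.

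Estradiol moved none of the 8 genes past the threshold in c-kit+ cells, where 0.181% of all genes tested were called. The I-A, I-E and invariant chain genes had higher means in estradiol than in control arrays, but their groups overlapped. Groups that do not overlap, higher with estradiol, made up 5.34% of all genes and 0 of the 8. The differences were 0.51 for Cd74 (interval 0.05 to 0.97, unadjusted p = 0.0331, adjusted p = 0.999 in limma), 0.57 for H2-Aa (-0.07 to 1.21, 0.999), 0.31 for H2-Ab1 (-0.19 to 0.82, 0.999) and 0.55 for H2-Eb1 (0.07 to 1.03, unadjusted p = 0.0282, adjusted p = 0.982). Without c-kit+ control replicate 3 these were 0.25, 0.15, 0.18 and 0.32. Of 18193 genes 814 had an unadjusted p under 0.05 in this comparison, a smaller share than that threshold alone would give. H2-DMa, H2-Oa, H2-Ob and Ciita lay between -0.17 and 0.20, with intervals that all span 0. Without that replicate H2-DMa went from 0.20 to -0.01 and H2-Ob from 0.16 to -0.0. The upper ends of the intervals leave room for changes of up to 1.21 on the log2 scale in H2-Aa.

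In CD44+ cells estradiol again moved none of the 8 past the threshold, where 0.291% of all genes tested were called. The differences were -0.18 for Cd74 (interval -0.64 to 0.28), -0.00 for H2-Aa (-0.64 to 0.63), 0.32 for H2-Ab1 (-0.19 to 0.83) and 0.24 for H2-Eb1 (-0.24 to 0.72), with adjusted p between 0.949 and 0.999. The other 4 genes lay between -0.15 and 0.17. Replicate numbers paired the CD44+ estradiol and control arrays (0.303, 0.368 and 0.322), and with that block 101 genes were called in place of 53, still 0 of the 8.

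The difference between the estradiol effects of the fractions, c-kit+ minus CD44+, was called for 0.0% of all genes in limma. Of 18193 genes 296 had an unadjusted p under 0.05, a smaller share than that threshold alone would give. It was 0.69 for Cd74 (interval 0.04 to 1.34, unadjusted p = 0.0396, adjusted p = 1.0), 0.57 for H2-Aa (-0.33 to 1.47), -0.01 for H2-Ab1 (-0.72 to 0.71) and 0.31 for H2-Eb1 (-0.37 to 0.99). Without c-kit+ control replicate 3 the values were 0.43 for Cd74, 0.16 for H2-Aa, -0.14 for H2-Ab1 and 0.08 for H2-Eb1. For the mean effect over both fractions 0.951% of genes were called and 0 of the 8. The largest was H2-Eb1 at 0.39 (interval 0.06 to 0.73, adjusted p = 0.552), followed by H2-Ab1 at 0.32 (-0.04 to 0.67, 0.811). With the replicate number as a block H2-Eb1 passed (adjusted p = 0.0327), but the numbers met the pairing rule in CD44+ cells and not in c-kit+ cells.

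Among 12 genes for loading and turnover of class II molecules (cathepsins, the asparagine endopeptidase Lgmn, the thiol reductase Ifi30 and ubiquitin ligases), 1 was higher in c-kit+ than in CD44+ cells in estradiol cultures and 2 in control cultures, and 0 were lower in either. Of all genes tested 0.324% were called higher in estradiol cultures and 0.539% in control cultures. Marchf1, a ubiquitin ligase that removes class II molecules from the cell surface, measured 8.05, 8.11 and 7.81 in c-kit+ estradiol arrays, 7.80, 7.76 and 7.66 in c-kit+ control arrays, 7.15, 7.32 and 7.16 in CD44+ estradiol arrays and 7.35, 7.15 and 6.53 in CD44+ control arrays. It was higher in c-kit+ cells by 0.78 in estradiol cultures (adjusted p = 0.0264) and 0.73 in control cultures (0.043), the opposite direction to the chains. Marchf1 lost its control culture call without any 1 array other than CD44+ control replicate 1 (adjusted p up to 0.141) and its estradiol culture call without c-kit+ estradiol replicates 1 or 2 or CD44+ estradiol replicates 1 or 3, and its adjusted p with the Gapdh covariate was 0.321 in estradiol cultures. Lgmn was higher in control cultures (0.73, adjusted p = 0.00994, lost without c-kit+ control replicate 1 or CD44+ control replicate 3) and did not pass in estradiol cultures (0.32, 0.409). Estradiol moved 0 of these 12 genes past the threshold in either fraction.

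Among 20 measured genes of the promoter complex and the regulators of Ciita, few passed. Irf4, a transcription factor of dendritic and B cells, was lower in c-kit+ than in CD44+ cells in estradiol cultures (log2 4.54 against 5.27 on average, difference -0.72, SE 0.13, adjusted p = 0.00682) and did not pass in control cultures (-0.34, 0.246). Its c-kit+ estradiol values, 4.45 to 4.64, are near the top of the range of the 6 Y-linked genes, so the size of that difference is uncertain and may be too small. Irf8, which directs monocyte and dendritic cell development, did not pass in estradiol cultures (0.46, 0.237) and was higher in c-kit+ cells in control cultures (0.75, adjusted p = 0.0239, lost without c-kit+ control replicates 1 or 3 or CD44+ control replicates 2 or 3). Rfx5, the subunit that names the RFX complex, lay between 9.34 and 10.17 on all arrays, and Ifng, the gene of interferon gamma, between 3.23 and 3.40.

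With estradiol, the same list had 0 rises in c-kit+ cells, where 0.176% of all genes tested were called higher, and 2 in CD44+ cells, where 0.28% were. Prdm1, a repressor known to act on the Ciita promoter in B cells, had 10.26, 10.60 and 10.33 in CD44+ estradiol arrays against 9.44, 9.39 and 8.78 in CD44+ control arrays (1.19, adjusted p = 0.0155, lost without CD44+ estradiol replicates 2 or 3 or CD44+ control replicate 3). Irf1, an activator of Ciita downstream of interferon gamma, had a smaller rise (0.96, adjusted p = 0.0295) that was lost without c-kit+ estradiol replicate 2, any CD44+ estradiol array, or CD44+ control replicates 2 or 3. In c-kit+ cells Prdm1 differed by 0.75 (adjusted p = 0.299) and Irf1 by 0.58 (0.445), neither past the threshold. Over both fractions together both rose (Prdm1 0.97, adjusted p = 0.00243, and Irf1 0.77, 0.00528). Ciita itself differed by -0.17 in c-kit+ cells and 0.01 in CD44+ cells on its brightest probe set. Its dimmer probe sets gave 0.16 and 0.14 in c-kit+ cells, and 0.12 and -0.1 in CD44+ cells. The 0.16 was without overlap, as for 5.34% of all genes, and the other values were with overlap. The sign for Ciita thus depended on the probe set.

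None of 16 measured genes of MHC class I presentation passed in any of the 6 comparisons. H2-M3, a class I molecule for formylated peptides, came closest, at 0.31 in estradiol cultures (adjusted p = 0.411) and 0.48 in control cultures (0.0815), higher rather than lower in c-kit+ cells. Tap2, a subunit of the peptide transporter, gave 0.33 with estradiol in CD44+ cells (adjusted p = 0.841). The medians of the class I list, c-kit+ minus CD44+, were 0.05 in estradiol and 0.17 in control cultures.

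**Figure D4:**
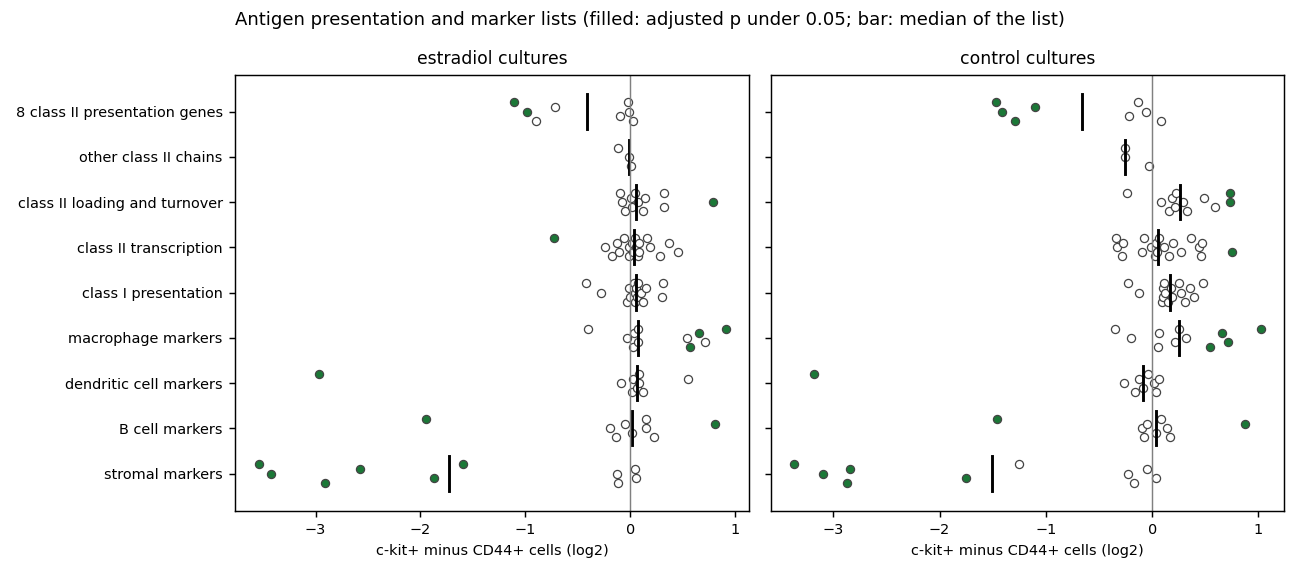
Log2 difference, c-kit+ minus CD44+ cells (horizontal axis), of each gene in the 8 class II genes, 4 other antigen presentation lists and 4 cell type marker lists, in estradiol cultures on the left and control cultures on the right. Each point is a gene, filled where its adjusted p is under 0.05, and the bar is the median of the list. The 8 class II genes have medians of -0.41 and -0.66, the stromal markers -1.73 and -1.50, and the medians of the remaining lists lie between -0.26 and 0.26.

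Markers of other cell types moved between the same fractions. In the list of stromal markers 6 of 10 were lower in c-kit+ cells in estradiol cultures and 5 of 10 in control cultures, with Col1a2 lower by 3.54 and 3.37 on the log2 scale (adjusted p = 0.000413 and 0.000763). The mean level of that list ran from 5.19 to 5.89 in c-kit+ estradiol arrays, 5.22 to 5.62 in c-kit+ control arrays, 6.73 to 7.54 in CD44+ estradiol arrays and 6.49 to 7.38 in CD44+ control arrays. Among 11 macrophage and monocyte markers 3 were higher in c-kit+ cells in estradiol cultures and 4 in control cultures, and 0 were lower. Of all genes tested, 0.324% were called higher and 2.33% lower in estradiol cultures, and 0.539% higher and 1.76% lower in control cultures. Mertk, a receptor for dying cells, was higher by 0.91 in estradiol cultures (adjusted p = 0.00253) and 1.02 in control cultures (0.0017). The mean of the macrophage list was 11.79 to 12.07 in c-kit+ estradiol, 11.74 to 11.86 in c-kit+ control, 11.55 to 11.72 in CD44+ estradiol and 11.39 to 11.58 in CD44+ control arrays. The medians of the macrophage list were 0.07 in estradiol and 0.25 in control cultures.

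Markers of the cells best known for class II gave less. Their counts stand beside the same shares of all genes, 2.33% lower and 0.324% higher in estradiol cultures and 1.76% and 0.539% in control cultures. Of 9 dendritic cell markers 1 was lower in c-kit+ cells in each kind of culture, Fscn1, an actin-bundling protein that is also made by stromal cells (-2.97 in estradiol cultures, adjusted p = 0.000286, and -3.18 in control cultures, 0.000231). Of the other 8, none of which passed, Zbtb46 lay between 4.23 and 4.87, Xcr1 between 3.28 and 3.66, Cd209a between 3.93 and 4.35 and Ccr7 between 3.55 and 4.05 over 12 arrays. Flt3 lay between 5.96 and 6.56, Itgax between 6.03 and 6.64 and Siglech reached 5.71. Batf3 was 6.37 to 6.95 in c-kit+ estradiol arrays and 5.92 to 6.29 in CD44+ estradiol arrays, without overlap (0.54, adjusted p = 0.0925), and differed by 0.04 in control cultures. In estradiol cultures 10.0% of all genes had all c-kit+ arrays above all CD44+ arrays. The mean of that list was 5.31 to 5.47 in c-kit+ estradiol, 5.15 to 5.35 in c-kit+ control, 5.61 to 5.67 in CD44+ estradiol and 5.61 to 5.71 in CD44+ control arrays. A mean without Fscn1 was taken after the value of Fscn1 was seen. This mean was 5.04 to 5.13 in c-kit+ estradiol and 4.91 to 5.13 in c-kit+ control arrays. In CD44+ arrays it was 4.93 to 5.04 with estradiol and 4.94 to 5.12 in control cultures. As Fscn1 was the only marker of the list that passed, leaving it out largely fixed in advance that the c-kit+ arrays no longer lay below. The median difference over the 9 markers was 0.07 in estradiol cultures, with 7 positive, and -0.09 in control cultures, with 3 positive. Of 9 B cell markers Cd22 was higher in c-kit+ cells (0.80 in estradiol cultures, adjusted p = 0.0185, and 0.88 in control cultures, 0.0125). Ebf1, which stromal cells also express, was lower (-1.95 in estradiol cultures, adjusted p = 0.00377, and -1.46 in control cultures, 0.0292). Its c-kit+ values, 3.60 to 4.24 in estradiol and 3.67 to 4.23 in control cultures, lie in the range of the Y-linked probe sets, so these differences may understate the gap. Cd22 lost its call without any of 4 single arrays in estradiol cultures and 2 in control cultures, and Ebf1 without any of 4 in control cultures. Ms4a1 stayed between 3.39 and 3.95 and Pax5 between 4.44 and 4.86. The mean of the B cell list was 4.85 to 5.02 in c-kit+ estradiol, 4.88 to 4.93 in c-kit+ control, 4.99 to 5.08 in CD44+ estradiol and 4.86 to 5.01 in CD44+ control arrays. The part of these cell types in the class II differences was not tested.

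In the lists for T and NK cells, mast cells, neutrophils, red cells and endothelium 0 genes passed between the fractions in either kind of culture. Of 9 neutrophil markers 0 were positive in control cultures (median -0.24, lowest adjusted p = 0.0731 in limma) and 1 in estradiol cultures (median -0.12). All c-kit+ arrays lay below all CD44+ arrays for 4 of the 9 in control cultures and 1 in estradiol cultures, against 8.33% and 8.15% of all genes. Of 8 stem and progenitor genes Cd34 was lower in c-kit+ cells in estradiol cultures (-1.43, adjusted p = 0.0318) and did not pass in control cultures (-1.28, 0.06). The call of Cd34 was lost without any 1 c-kit+ estradiol array or CD44+ estradiol replicates 1 or 2. With estradiol over both fractions, Cd14, the lipopolysaccharide coreceptor, rose by 0.43 (adjusted p = 0.0148, lost without c-kit+ estradiol replicate 2 or CD44+ estradiol replicates 2 or 3) among the macrophage markers.

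**Figure D5:**
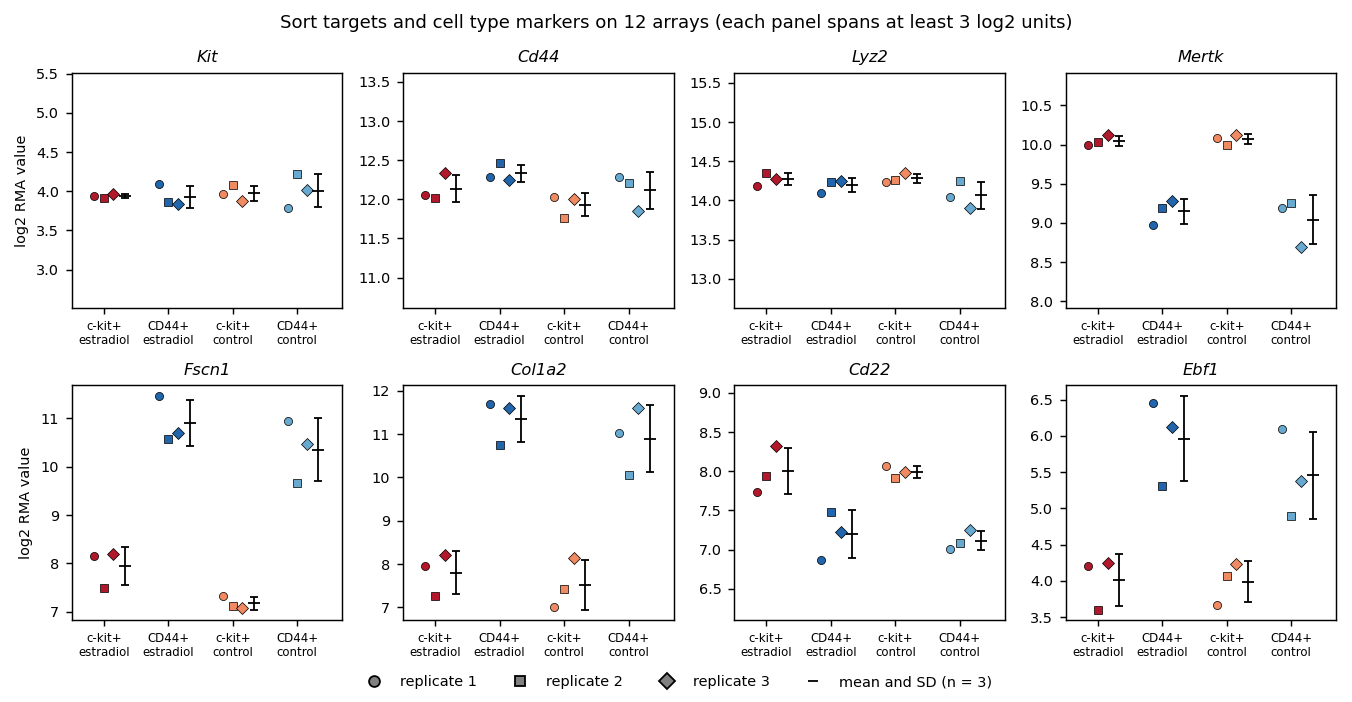
Log2 RMA value (vertical axis) of the sort targets Kit and Cd44 and of 6 marker genes on each of the 12 arrays, by group, with bars for the mean and SD of 3 arrays. Kit stays between 3.79 and 4.22 in both fractions, Lyz2 is bright in all groups, Mertk and Cd22 are higher and Fscn1, Col1a2 and Ebf1 lower in c-kit+ than in CD44+ arrays.

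The genes whose pattern over the 12 arrays was most like the mean of Cd74, H2-Aa, H2-Ab1 and H2-Eb1 were sought among 9092 genes at or above the median level. They were Napsa (an aspartic protease, Pearson r = 0.969), Cav1 (caveolin, 0.958), S100a10 (0.946), Acot7 (0.940), Dcstamp (a membrane protein of cell fusion in osteoclasts, 0.934), Itgb7 (an integrin beta chain, 0.932), Mgst2 (0.926) and Col18a1 (a collagen chain, 0.921). All 12 points share the split between the fractions, which alone gives high values, so the correlation was also taken over deviations from the group means. On those it was 0.933 for Napsa, the highest of the 8, 0.812 for S100a10, 0.807 for Mgst2, 0.795 for Acot7 and 0.758 for Cav1, with 0.492 for Itgb7 the lowest. The 8 genes were picked by a correlation that already holds these deviations, so high values are partly fixed by the choice. They are a description and no independent check. Napsa had 7.65, 8.12 and 7.67 in c-kit+ estradiol arrays, 7.76, 7.73 and 7.18 in c-kit+ control arrays, 8.24, 8.32 and 8.17 in CD44+ estradiol arrays and 8.17, 8.21 and 8.05 in CD44+ control arrays. Like the chains it was lowest on c-kit+ control replicate 3, and its differences of -0.43 in estradiol cultures (adjusted p = 0.315) and -0.59 in control cultures (0.0889) did not pass. Cav1 (-1.52 in estradiol and -1.90 in control cultures), Itgb7 (-1.38 and -1.67) and Dcstamp (-0.83 and -1.04) passed in both kinds of culture. Col18a1 passed in control cultures (-0.95). These genes were picked for likeness to genes that differ between the fractions, so their calls are no separate result.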

How the data were processed

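Total RNA was labelled with biotin in a two-cycle protocol and read on Affymetrix arrays, per the labels. The authors deposited log2 values made with RMA, per the submitters' processing notes (version not given in the sources used here). Platform annotation named 1 gene for 34945 of 45101 probe sets, and a gene is its brightest such probe set, with no filter or renormalization. Genes were tested with limma 3.58.1 (R 4.3.3), 1 mean per group over 12 arrays, empirical Bayes, Benjamini-Hochberg adjustment over 18193 genes and a threshold of 0.05 ("called" or "passed"), in 6 comparisons. Figures used Python 3.11.15 and matplotlib 3.10.9.

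The 8 genes, lists and tests were chosen with earlier results of these data known. Other genes are named by rule. From each pathway list these are the genes that passed (at most 4) or the 2 of smallest p. From each marker list the rule picks the brightest gene and those that passed (at most 3). Of these the brightest genes Procr, Cd4, Mitf, Mmp8, Tfrc and Vwf, and C1qb, which passed, are left without values here. Kit, Cd44 and the 8 genes most like the chains complete the rule. Csf1r, Adgre1, Itgam, Dcn, Lum, Lepr, Sp7, Rfx5, Ifng, Zbtb46, Xcr1, Cd209a, Ccr7, Flt3, Itgax, Siglech, Batf3, Ms4a1 and Pax5 were added, with their values known, for their levels. Replicate numbers were taken to pair 2 groups where all 3 correlations of deviations exceeded 0.1. The pipeline was tested on simulated data. Settings varied were the probe sets averaged, dim genes removed, quantile normalization, median centring, robust moderation with a trend, array weights, a replicate block, a comparison's 6 arrays alone and each array left out. A Gapdh covariate was added after the data were seen.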

Additional observations from a re-analysis of the deposited data

How the results depend on the processing

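Over 974 alternative values for the 8 genes in 6 comparisons, 945 kept their side of the threshold, 20 lost a call and 9 gained 1. No called value turned sign, while 63 of the uncalled values did. With array weights, which gave CD44+ control replicate 2 a weight of 9.38, 55 genes were called with estradiol in c-kit+ cells (33 without weights), 1405 in CD44+ cells (53), 523 over both fractions (173), 779 between fractions in estradiol cultures (483) and 1058 in control cultures (418). With the replicate block these counts were 62, 101, 272, 662 and 693. The replicate numbers did not meet the pairing rule for c-kit+ estradiol and control arrays (0.345, 0.092 and 0.253) or the control arrays of the fractions (0.175, 0.122 and -0.208). For the mean effect the block called 1 of the 8 genes, H2-Eb1 (adjusted p = 0.0327). Beside this and the calls of Cd74 and H2-Aa in estradiol cultures, the block changed no other call of the 8 genes. In estradiol cultures the block, array weights and the 6 arrays alone each called 4 of the 8 between fractions in place of 2, and among genes at or above the median level 250 genes were called. In control cultures the 6 arrays alone called 196 genes and 2 of the 8, with H2-Aa at 0.126 and H2-Eb1 at 0.0742, and the Gapdh covariate called 254 genes. The 6 arrays alone called 2 genes for estradiol in c-kit+ cells. Leaving out 1 array at a time gave 10 to 45 genes for estradiol in c-kit+ cells, 22 to 97 in CD44+ cells, 104 to 275 over both, 269 to 594 between fractions in estradiol cultures (0 to 4 of the 8) and 221 to 456 in control cultures (2 to 4 of the 8). Median centring changed the split of fraction calls to 110 higher and 374 lower in estradiol cultures (59 and 424 as deposited) and 240 and 281 in control cultures (98 and 320); the calls among the 8 genes did not change. Beyond these alternatives the causes were not tested. The 3 arrays a group and the low signals of H2-Oa, H2-Ob and Ciita limit what could be seen.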
